A study of Mus musculus with 4 samples.

Results

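The genes of the major histocompatibility complex (MHC) and of antigen presentation were examined in RNA from mouse thymospheres, the free-floating spheres that form when thymus digests are cultured in dishes to which cells do not attach. The set holds every gene whose symbol begins with H2- together with 16 genes of peptide processing, loading and MHC regulation, and was chosen by name. It counts 66 genes in the mouse annotation, of which 50 had a matched probe (61 probes) among 21154 named genes on the array. The embryonic group comprised 2 samples grown from the thymus at embryonic day 14.5, and the adult group comprised 2 samples from mice aged 5 to 6 weeks, all of strain C57Bl6/N. Both groups spent 7 days in a medium with B27 supplement, hydrocortisone, insulin, EGF and bFGF, which was renewed on day 5, and no other treatment or genetic change is given in the labels. Each sample, 25 ng of total RNA, was hybridised to its own 1-colour array. The labels speak of both biological and technical replicates and do not assign the arrays to either, so the spread that p-values rest on may be that of technical repeats.

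MHC class I molecules are made by nearly all nucleated cells. A heavy chain (H2-K1 and H2-D1 are the classical ones in this strain) folds with the light chain B2m around a peptide that the proteasome has cut and that the transporter Tap1 and Tap2 has carried into the endoplasmic reticulum, where Tapbp, Calr and Pdia3 help to load it. Class II molecules, made from paired alpha and beta chains such as H2-Aa and H2-Ab1 with the invariant chain Cd74 as chaperone, are found mainly on dendritic cells, macrophages and B cells, and in the thymus also on epithelial cells, where both classes present the peptides on which developing T cells are selected. Nlrc5 drives class I genes and Ciita drives class II genes, through promoter elements that the classes share.

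Signals are given as normalised log2 signal, the log2 of a spot's processed signal minus the 75th percentile of its array, so that a gene at 0 was as bright as that percentile. Spots well above background, the scanner software's own call, made up 48.3% and 35.7% of the embryonic arrays and 71.6% and 49.6% of the adult arrays. Adult array 2 had 2756 spots marked as outliers, against 95 to 185 on the other arrays. Testing a gene required a probe well above background on both embryonic or both adult arrays, and probes not well above background are called dim. With 13660 genes tested, the median log2 fold change (embryonic minus adult) was 0.79, which is the shift of the tested genes on this scale. It is not that of all probes on the array, since centring arrays on their median moved it to 1.98. The labels describe the spheres as derived from thymic epithelial stem cells. Of 15 listed epithelial markers, 11 and 10 were well above background on embryonic arrays and 14 and 10 on adult arrays. Krt5, a basal keratin, had signals of 6.08 and 7.16 on embryonic arrays and 3.83 and 2.89 on adult arrays. Epcam, an epithelial adhesion molecule, had signals of 1.62 and 1.53 on embryonic arrays and 1.29 and -0.01 on adult arrays, while Aire and Ly75 were well above background on no embryonic and 1 adult array each. The number of arrays limits the precision of every value below.

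Class I genes were mostly lower in embryonic spheres, and class II genes showed no common difference. Of the 37 members tested, 15 were called lower in embryonic spheres and 3 higher (limma, adjusted p under 0.05 over all tested genes), while 19 were not called. Among all tested genes, 17.5% were called lower and 36.1% higher. The median log2 fold change was -0.86 over the 37 members and 0.79 over all genes, and 33 of the 37 lay below the median of all genes. When each array was centred on its tested genes, 23 members were called lower and 0 higher, against 20.3% of all genes lower and 7.62% higher (at an unadjusted p under 0.05 no member was higher either). Genes that passed the filter through the adult group alone had to be lower, so the counts are also given for genes well above background on all 4 arrays. These were 26 members, 7 called lower and 3 higher with a median of -0.57, against 2.35% of all 9622 such genes called lower and 43.8% higher, with a median of 0.97.

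**Figure D1:**
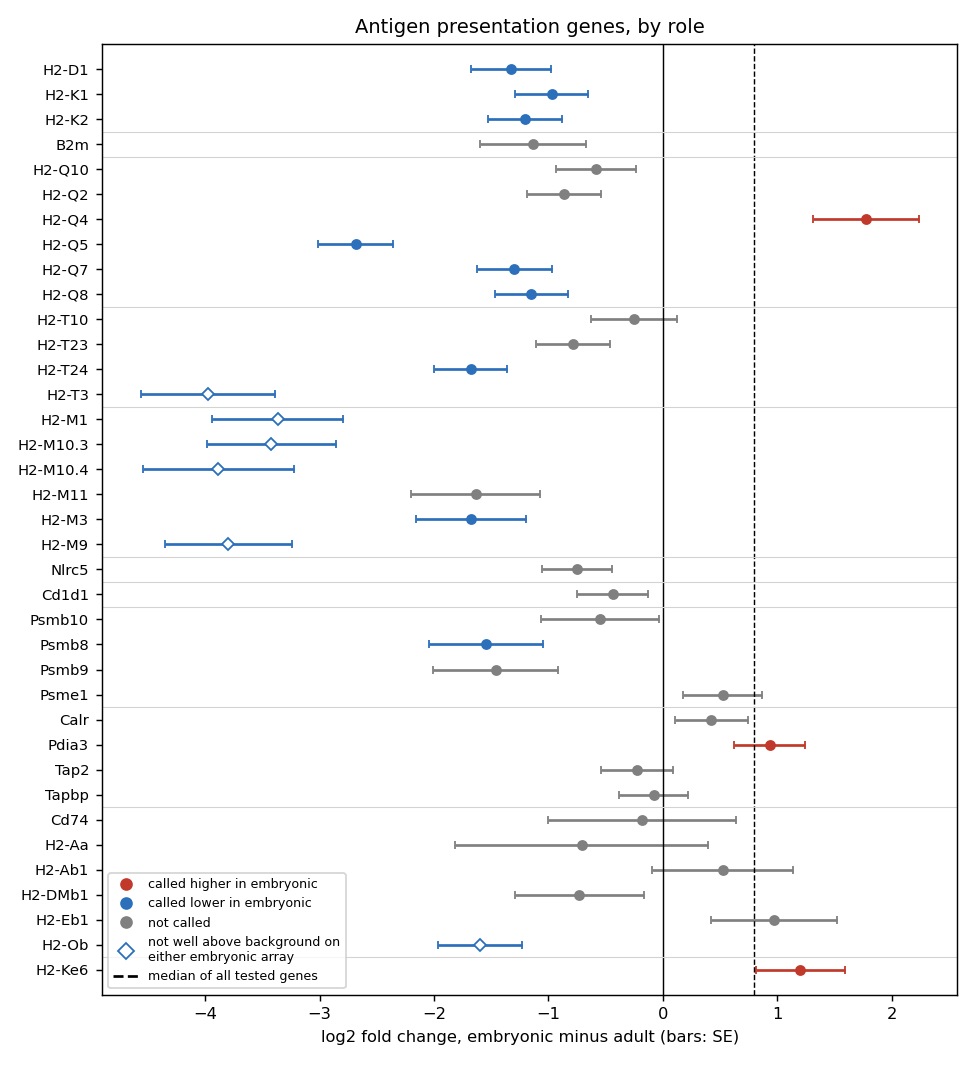
Log2 fold change, embryonic minus adult, of the 37 tested antigen presentation genes grouped by role, with SE bars; the solid line marks 0 and the dashed line the median of all tested genes, 0.79. Class I genes lie mostly left of 0, except H2-Q4 at 1.77, and class II genes lie on both sides. With arrays centred on the median of all probes, the class I genes H2-K1, H2-Q2, H2-Q8, H2-Q10, H2-T10, H2-T23 and B2m cross to the right of 0.

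The classical heavy chain genes were lower in embryonic spheres. H2-D1, which encodes a heavy chain that presents peptides to CD8 T cells, had signals of 4.40 and 3.99 on embryonic arrays and 5.76 and 5.28 on adult arrays. H2-K1, the other classical heavy chain, had 4.62 and 4.37 on embryonic arrays and 5.62 and 5.31 on adult arrays. For both genes every embryonic array was below every adult array. H2-D1 fell by 1.33 on the log2 scale (SE 0.35, limma adjusted p = 0.0275) and H2-K1 by 0.97 (SE 0.32, adjusted p = 0.0485). H2-K2, annotated as a transcribed pseudogene beside H2-K1, had 3.73 and 3.44 on embryonic arrays and 4.95 and 4.64 on adult arrays, which gave -1.21 on the log2 scale (SE 0.32, adjusted p = 0.0278). The call for H2-K1 is close to the threshold and was lost without the filter on dim probes, with the mean of its probes, with a robust prior and with the replicate block (adjusted p = 0.0585), and its direction turned (0.22) when arrays were centred on the median of all probes. That centring and the fit without a filter on dim probes also ended the calls of H2-D1 and H2-K2, which stood at -0.14 and -0.02 under the centring.

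B2m, the light chain that every class I heavy chain needs at the cell surface, had signals of 7.21 and 6.11 on embryonic arrays and 8.005 and 7.58 on adult arrays. The groups did not overlap, but the embryonic arrays differed from each other by 1.10, nearly as much as the groups. The log2 fold change of -1.14 (SE 0.46) was not called (limma adjusted p = 0.0837). With arrays centred on the median of all probes it was 0.05.

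Among the Q genes, which encode heavy chains of limited variation, most were lower and 1 was higher in embryonic spheres. H2-Q7, which encodes the Qa-2 antigen, had 3.79 and 3.45 on embryonic arrays and 5.07 and 4.77 on adult arrays, which gave -1.30 on the log2 scale (SE 0.33, adjusted p = 0.024). That call was lost without the filter on dim probes and with arrays centred on all probes (-0.11). H2-Q5, annotated as a transcribed pseudogene, had -0.45 and -0.87 on embryonic arrays and 2.11 and 1.94 on adult arrays. Its arrays agreed closely within each group, and its fold change, -2.69 in log2 (SE 0.33, adjusted p = 0.00757), was called in all 13 other settings that kept all 4 arrays. H2-Q8 was also called lower at -1.15 (SE 0.32, adjusted p = 0.0312), but turned direction (0.0377) with that centring and lost the call without the filter. H2-Q2 at -0.86 (adjusted p = 0.067) and H2-Q10, whose product is known as a secreted heavy chain, at -0.58 (adjusted p = 0.194) were not called. Neither had overlapping groups at the probe used. A further H2-Q10 probe, well above background on 1 array of each group and not tested, had groups that overlapped.

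H2-Q4, a further Q gene, went the other way. Its signals were 5.67 and 5.98 on embryonic arrays and 3.48 and 4.61 on adult arrays. Both embryonic arrays were above both adult arrays, which differed by -1.13 (array 1 minus array 2). The log2 fold change was 1.77 (SE 0.46, limma adjusted p = 0.0259). After centring on the tested genes it was 1.12 and not called (adjusted p = 0.155), and the call was also lost with quantile normalization, with the deposited value table, without the filter on dim probes and with an outlier-free 75th percentile. Class I heavy chain genes are close copies of each other, and whether a probe of one also binds transcripts of another was not tested.

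**Figure D2:**
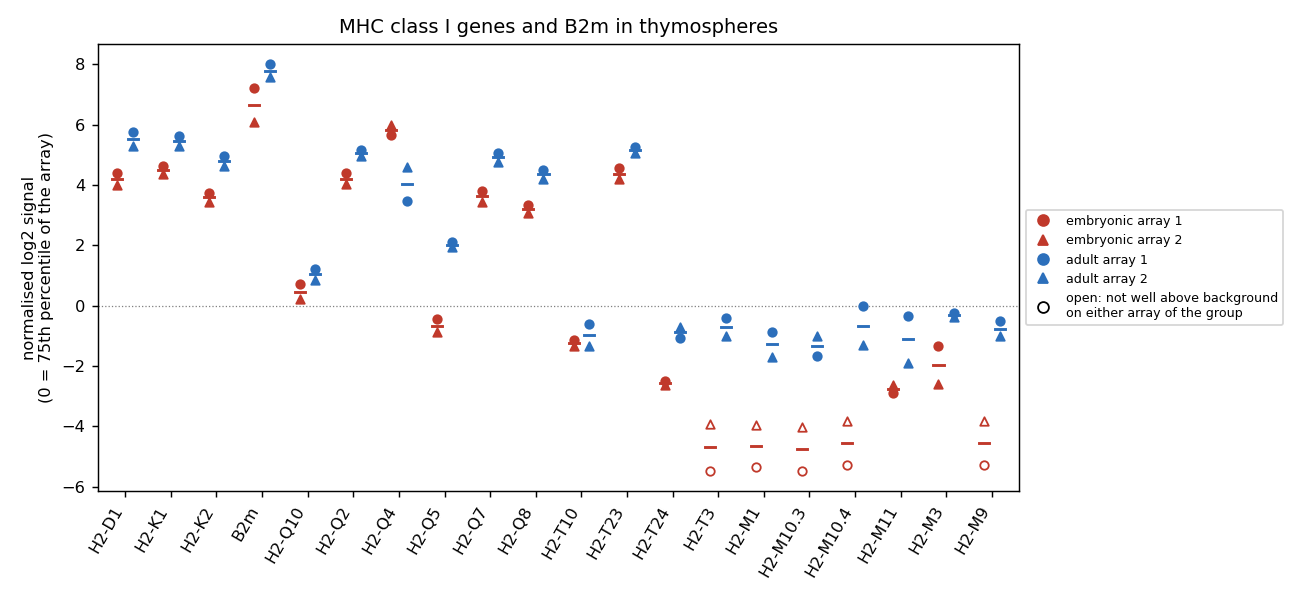
Normalised log2 signal (0 is the 75th percentile of the array) of the 20 tested class I genes including B2m, with 2 embryonic arrays left of 2 adult arrays for each gene; lines are group means and open symbols mark groups with no array well above background. Both embryonic arrays lie below both adult arrays in all genes but H2-Q4, where they lie above, and H2-T10, where the groups overlap. The 5 genes with open embryonic symbols entered the test through the adult arrays alone, which fixes their direction. The share of all tested genes whose groups separate is not given here.

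Promoter sequences are shown for 3 class I heavy chain genes called lower, for H2-Q4, which was called higher, and for B2m and the class II gene H2-Aa, which were not called. They are the 250 bases before the annotated start, from RefSeq on the build GRCm38.p6. The windows are H2-K1 at chr17:34000334-34000583 on the minus strand, H2-D1 at chr17:35262844-35263093 on the plus strand, H2-Q7 at chr17:35438905-35439154 on the plus strand, H2-Q4 at chr17:35379367-35379616 on the plus strand, B2m at chr2:122147437-122147686 on the plus strand and, for class II, H2-Aa at chr17:34287824-34288073 on the minus strand. H2-K1 has a further annotated start just upstream. Each sequence runs 5′ to 3′ along the gene, and capitals mark matches on either strand to the motifs described after them.
H2-K1: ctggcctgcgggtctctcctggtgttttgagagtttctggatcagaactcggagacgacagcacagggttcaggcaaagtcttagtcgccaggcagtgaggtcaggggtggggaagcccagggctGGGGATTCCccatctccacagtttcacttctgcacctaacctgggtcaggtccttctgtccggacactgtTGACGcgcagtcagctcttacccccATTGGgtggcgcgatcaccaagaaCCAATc
H2-D1: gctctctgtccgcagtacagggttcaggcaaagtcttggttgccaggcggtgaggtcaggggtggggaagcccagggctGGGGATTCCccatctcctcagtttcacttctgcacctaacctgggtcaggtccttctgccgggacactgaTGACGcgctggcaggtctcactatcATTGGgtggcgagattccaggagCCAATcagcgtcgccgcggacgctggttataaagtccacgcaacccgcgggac
H2-Q7: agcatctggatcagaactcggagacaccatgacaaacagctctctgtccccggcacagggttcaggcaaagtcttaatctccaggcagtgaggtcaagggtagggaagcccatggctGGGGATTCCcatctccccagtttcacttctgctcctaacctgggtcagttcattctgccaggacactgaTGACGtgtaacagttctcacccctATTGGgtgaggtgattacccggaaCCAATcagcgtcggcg
H2-Q4: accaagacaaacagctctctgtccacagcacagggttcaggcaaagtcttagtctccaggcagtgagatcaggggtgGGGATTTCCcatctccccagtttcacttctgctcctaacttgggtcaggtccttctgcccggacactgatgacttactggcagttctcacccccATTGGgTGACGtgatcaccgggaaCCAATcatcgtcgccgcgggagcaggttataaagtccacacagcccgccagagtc
B2m: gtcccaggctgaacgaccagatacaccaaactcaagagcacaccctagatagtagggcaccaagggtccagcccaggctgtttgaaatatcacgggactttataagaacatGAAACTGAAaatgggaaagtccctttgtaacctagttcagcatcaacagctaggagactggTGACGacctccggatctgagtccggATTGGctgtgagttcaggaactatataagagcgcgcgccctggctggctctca
H2-Aa: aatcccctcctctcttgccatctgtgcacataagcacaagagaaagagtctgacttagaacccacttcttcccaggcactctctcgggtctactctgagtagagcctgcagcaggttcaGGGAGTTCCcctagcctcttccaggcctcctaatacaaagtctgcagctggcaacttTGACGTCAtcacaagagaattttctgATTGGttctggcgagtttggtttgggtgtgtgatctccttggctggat

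The motifs searched were the X2 core TGACG and the Y box CCAAT, which belong to the element shared by class I and class II promoters, a kappaB motif GGGNNTTCC, the core GAAANNGAA of the interferon-stimulated response element and the GAS motif TTCNNNGAA. Both strands were searched, and an overlap of X2 cores on opposite strands occurs in H2-Aa. Of all 32851 RefSeq windows of this length, 17.8% held the X2 core, 33.9% the Y box, 4.98% the kappaB motif, 7.13% the interferon core and 7.02% the GAS motif. A window was found for 38 members with a probe, and 13, 31, 6, 3 and 4 of them held these motifs in the same order. The X2 core, Y box and kappaB motif occurred together in 5 members, H2-Aa, H2-D1, H2-K1, H2-Q4 and H2-Q7, and in 0.408% of all windows. B2m was the only member with a window that held the X2 core, the Y box and the interferon core, a combination found in 0.402% of windows. A match is a run of letters and not a shown binding site.

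Among the windows printed above, the spacing of the motif matches differed in H2-Q4. On the gene strand, TGACG began 25 bases before the inverted Y box ATTGG in H2-K1, H2-D1, H2-M3 and B2m, and 24 bases before it in H2-Q7. These 5 were the members among 25 windows (0.076%) with that spacing, and H2-Aa had 26 bases. In H2-Q4 TGACG instead began 6 bases after the first base of ATTGG, although its window was 75.9% identical to that of H2-D1 in a global alignment. The H2-Q4 window reads TGACT 25 bases before ATTGG, which differs from the X2 core in its last base and was not matched. H2-K1 and H2-Q7 were 67.5% identical, and H2-D1 and B2m 51.0%, close to the 53.2% between H2-K1 and H2-Eb1. Other class I genes called lower lacked the spacing too. H2-T3 held none of the motifs, H2-M1 and H2-M9 no X2 core, and H2-M10.3 and H2-M10.4 had TGACG only on the other strand. The window of H2-Q10, not called, was 80.4% identical to that of H2-D1 and held none of the motifs. The spacing was looked for after the windows had been seen, and a link between it and the calls was not tested.

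**Figure D3:**
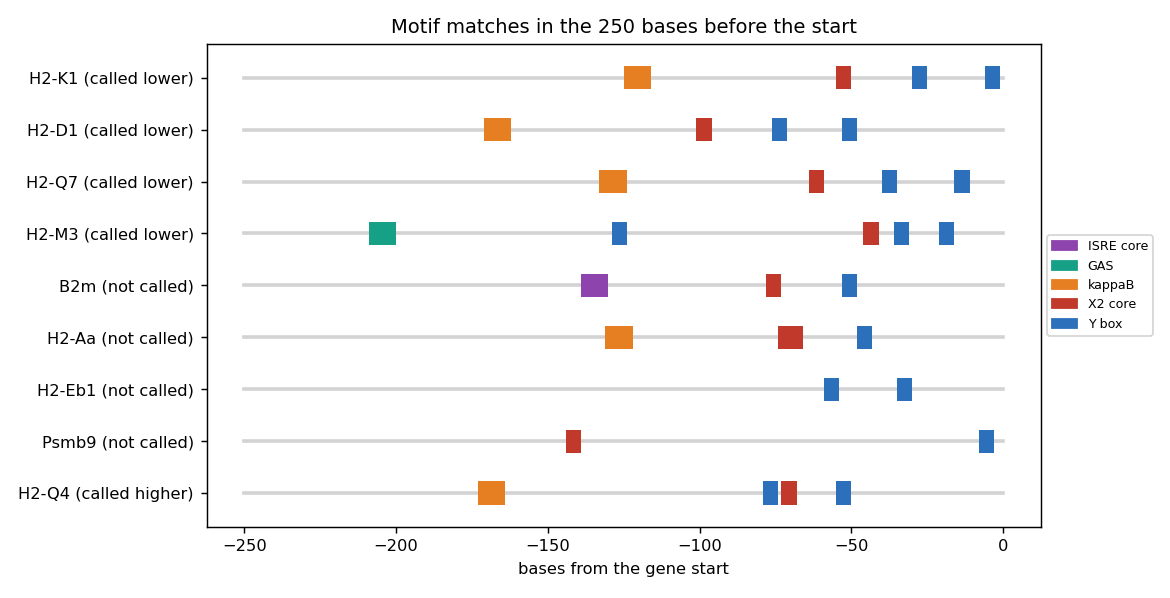
Motif matches in the 250 bases before the start of 9 genes, by distance from the start in bases, with each gene's call in embryonic spheres in brackets. The X2 core match lies 24 to 26 bases before an inverted Y box in H2-K1, H2-D1, H2-Q7, H2-M3, B2m and H2-Aa. In H2-Q4 the match lies 6 bases after it, and a TGACT that the search did not match stands before it.

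The T genes encode further nonclassical class I chains. H2-T23, which encodes the Qa-1 chain that natural killer cell receptors read, had 4.55 and 4.18 on embryonic arrays and 5.25 and 5.05 on adult arrays. The groups did not overlap, and the log2 fold change of -0.78 (SE 0.32) was not called (limma adjusted p = 0.0848). H2-T24 was called lower at -1.68 (SE 0.32, adjusted p = 0.0132) and was well above background on 1 of 2 embryonic arrays. It lost the call in 5 of 12 other settings, with a fold change as small as -0.40 in the deposited value table. H2-T10, a transcribed pseudogene, overlapped between the groups (log2 fold change -0.25, adjusted p = 0.578). H2-T3, which encodes the thymus leukaemia antigen, was dim on both embryonic arrays, and its adult signal was at least 3.30-fold higher (adjusted p = 0.00913), in a direction fixed by its entry through the adult arrays alone.

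Such a bound sets the bright group's mean against the lowest signal that counted as well above background on the dim arrays, or the probe's own signal where higher. It depends on the scaling and carries no error of its own.

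Of the 6 H2-M genes tested, 5 were called lower in embryonic spheres (17.5% among all tested genes), most of them dim. H2-M3, whose product presents formylated peptides of bacteria and mitochondria, had -1.35 and -2.61 on embryonic arrays and -0.24 and -0.36 on adult arrays. Its log2 fold change was -1.68 (SE 0.48, adjusted p = 0.0337), with 1 embryonic array well above background, and the call was lost in 5 of 12 other settings (-0.49 with arrays centred on the median of all probes). H2-M1, H2-M9, H2-M10.3 and H2-M10.4, known for their expression beside pheromone receptors in the vomeronasal organ, were dim on both embryonic arrays. Their signals on adult arrays lay between -1.70 and -0.01, and they were at least 2.22-fold, 3.18-fold, 2.15-fold and 3.42-fold higher in adult spheres in that order (limma adjusted p between 0.00913 and 0.0111). They entered the test through the adult arrays alone, which fixes the direction, and H2-M1, H2-M9 and H2-M10.3 lost the call with normexp background correction (adjusted p = 0.0591, 0.0518 and 0.0935). A further H2-M10.3 probe was dim on all 4 arrays, and its groups overlapped. H2-M11 was not called (log2 fold change -1.63, adjusted p = 0.0546).

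Beside these dim genes stand other probes for transcripts of sensory cells. Of 1507 sensory receptor probes, 6.11% and 2.26% were well above background on embryonic arrays and 51.3% and 23.2% on adult arrays. Probes for chromosomal regions outside named genes were well above background at 27.4% and 13.7% on embryonic arrays and 60.4% and 29.4% on adult arrays. The part of these values in the differences of the dim members was not tested.

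Across the 20 class I genes tested, 13 were lower and 1 (H2-Q4) was higher in embryonic spheres, with a median log2 fold change of -1.31, or -1.18 with the 5 dim genes set at their bounds. Of the 12 with signal above background on every array, 6 were lower and 1 higher, with a median of -1.05, where 2.35% of all such genes were lower and 43.8% higher. Over the 20 genes, the 5 dim ones of fixed direction included, the class I median stayed below 0 under every scaling tried. It was -0.13 with arrays centred on the median of all probes and -2.02 with quantile normalization. Under the all-probe centring 6 class I genes were called lower (12.4% of all genes), H2-Q5 and the 5 dim ones. Of those with signal on every array, H2-D1 (-0.14), H2-K2 (-0.02), H2-Q5 (-1.50) and H2-Q7 (-0.11) then lay below 0. H2-K1, H2-Q2, H2-Q4, H2-Q8, H2-Q10, H2-T10, H2-T23 and B2m lay above 0. Without adult array 1 or adult array 2 no gene of the whole table was called by limma, while 8 and 12 members were lower and 2 and 1 higher at an unadjusted p under 0.05. The class I medians were then -1.07 without adult array 1 and -1.49 without adult array 2.

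Nlrc5, the class I transactivator, had -1.32 and -1.59 on embryonic arrays and -0.67 and -0.74 on adult arrays. The groups did not overlap, and the log2 fold change of -0.75 (SE 0.31) was not called (adjusted p = 0.0854). That probe was well above background on 1 of 2 embryonic arrays. A further Nlrc5 probe, dim on all 4 arrays, went the other way, with -3.67 and -3.89 on embryonic arrays and -5.28 and -4.44 on adult arrays. Of 9 other regulators tested, 5 were called higher in embryonic spheres (36.1% among all tested genes) and 4 were not called (limma). With arrays centred on the tested genes, 0 were called higher and 1 lower. Nfya, a subunit of the factor that binds the Y box, and the acetyltransferase gene Kat2b were not well above background on either adult array. They were at least 3.13-fold and 2.93-fold higher in embryonic spheres in that order. Both entered the test through the embryonic arrays alone, which fixes their direction. Crebbp, a coactivator, was at a log2 fold change of 1.66 (adjusted p = 0.0389). Rfx5, a subunit of the factor that binds the X box, was not well above background on any array.

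The immunoproteasome subunits replace their constitutive counterparts and favour peptides that fit class I. Psmb8 had 0.22 and -1.09 on embryonic arrays and 1.23 and 0.99 on adult arrays, and Psmb9 had -0.01 and -1.49 on embryonic arrays and 0.87 and 0.55 on adult arrays. For both, embryonic array 2 was lowest and the groups did not overlap. Psmb8 was called lower at -1.55 (SE 0.50, adjusted p = 0.0458), and Psmb9 at -1.46 (SE 0.54, adjusted p = 0.0662) was not. Psmb8 lost the call in 3 of 13 other settings (-0.36 with arrays centred on all probes), and Psmb9 gained one in 6 of 13, the replicate block among them (adjusted p = 0.0411). Psmb10 had 3.88 and 2.53 on embryonic arrays and 3.91 and 3.61 on adult arrays, so its groups overlapped (log2 fold change -0.55, adjusted p = 0.38; 0.64 with arrays centred on all probes).

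The constitutive counterparts lay near the median of all genes. Psmb5, Psmb6 and Psmb7, the catalytic subunits that the immunoproteasome replaces, had log2 fold changes of 0.51, 0.75 and 1.02, and none was called. Of 17 constitutive proteasome genes tested, 1 was called higher in embryonic spheres (36.1% among all tested genes) and 16 were not called. The one higher was the activator Psme3 at 1.49 (adjusted p = 0.0468). The 17 genes had a median of 0.75 beside 0.79 for all genes, and their values ran between 0.40 and 1.49. Psme1, an activator subunit that interferon induces, had 3.82 and 3.30 on embryonic arrays and 3.15 and 2.92 on adult arrays, and its log2 fold change of 0.52 was not called (adjusted p = 0.23).

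Peptide transport and loading genes showed small differences. Tap2, the transporter subunit that was tested, had 1.33 and 1.65 on embryonic arrays and 1.81 and 1.63 on adult arrays (log2 fold change -0.22, SE 0.32, adjusted p = 0.558). Tapbp, which bridges the transporter and the heavy chain, had 2.66 and 2.54 on embryonic arrays and 2.74 and 2.61 on adult arrays (log2 fold change -0.08, SE 0.30, adjusted p = 0.831). Groups overlapped in both. Pdia3, the disulphide isomerase of the loading complex, had 3.88 and 4.08 on embryonic arrays and 2.96 and 3.14 on adult arrays. It was called higher at 0.93 (SE 0.31, adjusted p = 0.0484), close to the shift of all genes, and lost the call in 8 of 13 other settings, the replicate block among them (adjusted p = 0.0639). The chaperone gene Calr at 0.42 (SE 0.32, adjusted p = 0.284) was not called.

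Other chaperones and glycan-processing genes of the endoplasmic reticulum, which serve many proteins, had a median log2 fold change of 0.75 over 13 genes tested. Of these, 4 were called higher in embryonic spheres (36.1% among all tested genes) and 9 were not called. Canx, which holds new heavy chains, was at 1.47 (SE 0.30, adjusted p = 0.0148), and Ganab and Uggt1, which trim and check glycans, were both at 1.27.

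Cd1d1, a class I-like molecule that presents lipids, was measured by a pair of probes that differed. The brighter had 0.52 and 0.44 on embryonic arrays and 1.05 and 0.78 on adult arrays (log2 fold change -0.44, SE 0.31, adjusted p = 0.257). The other had -1.87 and -1.90 on embryonic arrays and 0.65 and 0.69 on adult arrays, and was called lower at -2.55 in the fit over probes (adjusted p = 0.00599). H2-Ke6, which lies in the complex but encodes a steroid dehydrogenase, was called higher at 1.20 (SE 0.39, adjusted p = 0.0466), with 2.35 and 1.71 on embryonic arrays and 1.10 and 0.55 on adult arrays. That call was lost in 6 of 13 other settings.

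The class II genes tested, other than H2-Ob, differed more between the 2 embryonic arrays than between the groups. H2-Ab1, the beta chain of the I-A molecule, had 4.56 and 3.14 on embryonic arrays and 3.87 and 2.79 on adult arrays. H2-Eb1 is the I-E beta chain, whose alpha chain gene H2-Ea is annotated as a transcribed pseudogene, and mice of this strain are known to make no I-E molecule. It had 3.76 and 2.65 on embryonic arrays and 2.77 and 1.70 on adult arrays. In both genes array 1 of a group was above array 2 and the groups overlapped. The log2 fold changes were 0.52 (SE 0.61, limma adjusted p = 0.481) and 0.97 (SE 0.55, adjusted p = 0.176).

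Cd74, the invariant chain, had 2.76 and 0.46 on embryonic arrays and 2.33 and 1.25 on adult arrays. H2-Aa, the I-A alpha chain, had 0.29 and -3.14 on embryonic arrays and -0.28 and -1.15 on adult arrays. In both, embryonic array 1 was the highest of the 4 arrays and embryonic array 2 the lowest, and log2 fold changes were -0.18 (SE 0.82, adjusted p = 0.857) and -0.71 (SE 1.11, adjusted p = 0.595). H2-DMb1, which helps to exchange peptides, had 0.38 and -1.09 on embryonic arrays and 0.67 and 0.07 on adult arrays (log2 fold change -0.73, adjusted p = 0.296). H2-Ob, a subunit of the protein that restrains that exchange, was the one class II gene called lower (adjusted p = 0.019). It was dim on both embryonic arrays and at least 2.16-fold higher on the adult ones. It entered the test through the adult arrays alone, which fixes its direction, and lost the call in 5 of 12 other settings. A further H2-Ob probe was dim on all 4 arrays, and its groups overlapped.

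**Figure D4:**
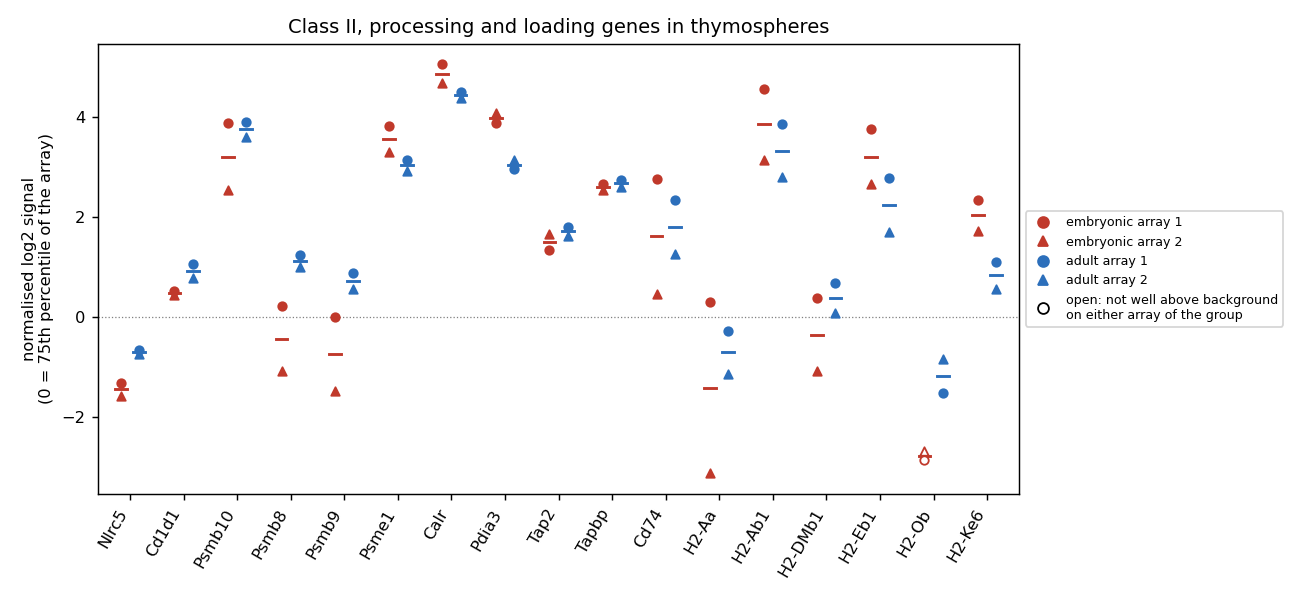
Normalised log2 signal of the other 17 tested members, drawn as for class I, from Nlrc5 and Cd1d1 through proteasome and loading genes to class II genes and H2-Ke6. The 2 embryonic arrays of Cd74 (2.76 and 0.46) and H2-Aa (0.29 and -3.14) enclose both adult arrays, while those of Tapbp and Tap2 lie close to the adult ones.

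The 6 class II genes tested had a median log2 fold change of -0.45, which became 0.74 with arrays centred on the median of all probes, and 0.17 over the 4 with signal above background throughout. None of those 4 was called. The class I median minus the class II median was -0.87. Taken for each embryonic and adult array in turn, that difference was -1.75 and -2.42 with embryonic array 1, and -0.23 and -0.32 with embryonic array 2. Without embryonic array 1 it was -0.12, and 4 class II genes were then called lower, as were 18.9% of all genes, with the lone embryonic array taken to vary like the adult group. Without embryonic array 2 it was -2.10, and class II genes had a median of 1.00. The difference of -0.87 was thus smaller than its SD over the 4 array pairs, 1.08, which share arrays.

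Between the 2 embryonic arrays, class II genes had a median of 1.44 for array 1 minus array 2, and 5 of 6 exceeded 1, as did 7.45% of all genes. Psmb8, Psmb9, Psmb10 and Psme1 had a median of 1.33, class I genes one of 0.27 and all genes one of -0.09. Between the adult arrays the medians were 0.97 for class II, 0.27 for the proteasome members, 0.31 for class I and 0.19 for all genes. These are descriptions of single pairs of arrays and have no test.

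**Figure D5:**
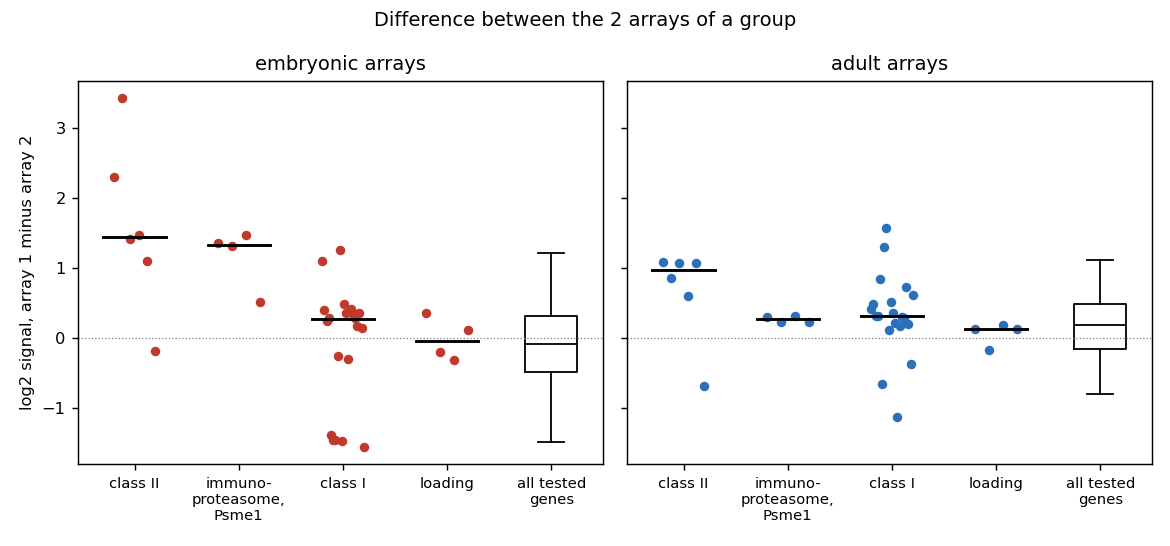
Log2 signal of array 1 minus array 2 within the embryonic group (left) and the adult group (right), with a point for each tested gene and a line at the median of each set; the box shows all tested genes (quartiles, whiskers at the 5th and 95th percentiles). Class II genes have the highest medians in both groups, 1.44 in the embryonic and 0.97 in the adult group.

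Other genes of the class II pathway were also mostly not called. Of 12 tested, 2 were called higher in embryonic spheres (36.1% among all tested genes) and 10 were not. Their median log2 fold change of 0.67 stands beside 0.79 for all genes, and 0 were called with arrays centred on the tested genes. The 2 called were Ifi30, a thiol reductase of the endocytic pathway, at 1.54 (adjusted p = 0.0294) and Marchf8, a ubiquitin ligase that turns class II over, at 1.37 (adjusted p = 0.0174). Ctss, the protease that trims the invariant chain, was not called (0.85, adjusted p = 0.121). Between the embryonic arrays these 12 genes had a median difference of -0.05.

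Markers of cells that carry class II were examined in the same arrays. In bulk samples, fewer cells of a type and less RNA per cell cannot be told apart. Of 10 macrophage and myeloid genes tested, 3 were called higher in embryonic spheres (36.1% among all tested genes) and 7 were not called. They were Lyz2 at 2.31 (adjusted p = 0.0129), Cd68 at 1.13 and Csf1r at 1.03. The summed signal of that list, in units of the 75th percentile, was 123 and 112 on embryonic arrays and 81.2 and 114 on adult arrays. Most of it came from the integrin gene Itgam, singled out after its values were seen, which had log2 signals of 6.22 and 6.35 on embryonic arrays and 6.00 and 6.53 on adult arrays and was not called. The pan-leukocyte gene Ptprc was well above background on no embryonic and 1 adult array, and the myeloid factor gene Spi1 on none. Itgax, a dendritic cell integrin, was well above background on 1 embryonic and no adult array. The dendritic list, with 4 of 10 genes tested, summed to 245 and 256 on embryonic arrays and 73.7 and 118 on adult arrays, most of it from Siglech, which was called higher at 1.45 (adjusted p = 0.0239). Cd209a of that list was dim on both embryonic arrays. The B-lineage list had 1 of 7 genes well above background on each embryonic array, against 5 and 3 on the adult arrays, with sums of 1.48 and 1.40 on embryonic arrays and 2.33 and 2.81 on adult arrays. The T-lineage list had 4 and 3 of 12 genes on embryonic arrays and 10 and 6 on adult arrays, but summed to 9.87 and 11.9 on embryonic arrays and 8.94 and 9.66 on adult arrays.

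Thymic epithelial cells also carry class II. Of 11 epithelial genes with a test, embryonic spheres had 4 higher and 2 lower (36.1% and 17.5% among all tested genes). The keratin gene Krt5 was at 3.26 (adjusted p = 0.0102) and the cadherin gene Cdh1 at 2.08, while Krt14 at -1.87 and the costimulator gene Cd80 at -1.47 were lower. Krt8, named after its values were seen, was higher at 1.82. The list summed to 150 and 265 on embryonic arrays and 56.0 and 37.0 on adult arrays. Foxn1, the master factor of thymic epithelium, had -0.81 and -0.50 on embryonic arrays and -2.23 and -3.23 on adult arrays (log2 fold change 2.07, SE 0.43, adjusted p = 0.0157). Of 10 fibroblast genes tested, 3 were called higher and 1 lower (36.1% and 17.5% among all tested genes). The fibroblast list summed to 857 and 536 on embryonic arrays and 464 and 461 on adult arrays. Of 6 endothelial genes tested, 4 were called lower (17.5% among all tested genes). Of those, 3 were dim on both embryonic arrays, which fixes their direction. Kdr, named after its values were seen, was the only endothelial gene with signal above background on every array and was not called (0.64). The endothelial list summed to 16.1 and 26.1 on embryonic arrays and 17.1 and 19.2 on adult arrays. The part of these cell types in the differences of the MHC genes was not tested.

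Class I genes and the immunoproteasome are known targets of interferon, and other interferon-induced genes were mostly lower in embryonic spheres. Of 20 tested, 15 were called lower in embryonic spheres (17.5% among all tested genes) and 5 were not called. The median log2 fold change of the 20 was -2.04. Oasl1, of the antiviral synthetase family, had -1.64 and -1.02 on embryonic arrays and 2.34 and 2.01 on adult arrays (log2 fold change -3.50, SE 0.36, adjusted p = 0.00735). Oas3, of the same family, and the RNA sensor Dhx58 were dim on both embryonic arrays and at least 3.50-fold and 7.06-fold higher in adult spheres in that order. Both entered the test through the adult arrays alone, which fixes their direction. Between the embryonic arrays the 13 of these genes with signal above background on every array had a median difference of 0.18, and 4 of them exceeded 1. The part of interferon in the differences of the MHC genes was not tested.

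The components of the interferon response itself were mostly not called. Of 15 receptor, kinase, STAT and interferon regulatory factor genes tested, 3 were called higher in embryonic spheres and 1 lower. Among all tested genes 36.1% were called higher and 17.5% lower. The one lower was Irf7, which amplifies the type I response, with -1.97 and -1.86 on embryonic arrays and 0.82 and 0.98 on adult arrays (log2 fold change -2.82, SE 0.30, adjusted p = 0.00735). The receptor chain Ifnar1 at 1.50, the factor Irf3 at 1.39 and the kinase Jak1 at 1.08 were called higher. Irf1, which activates class I promoters, had 2.32 and 1.63 on embryonic arrays and 1.77 and 1.75 on adult arrays and was not called (0.22, adjusted p = 0.621). The interferon genes Ifng and Ifnb1 were not well above background on any array.

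The fit over single probes kept part of the calls, against a larger share of lower calls than the 17.5% of all genes. H2-K1 (limma adjusted p = 0.0696 and 0.111 for its probes) and Psmb8 (0.0518) were no longer called lower. H2-Ke6 (0.0590) and Pdia3 (0.0716) were no longer called higher. Of 43 member probes tested, 15 were called lower in embryonic spheres and 1 higher, where 25.1% of all 27038 tested probes were called lower and 23.7% higher. Of 11 members with more than 1 probe, 6 had more than 1 tested, and none had probes called in opposite directions. The probe pairs of H2-K1 (log2 fold changes -0.97 and -0.82), H2-K2 (-1.21 and -1.04), H2-Q2 (-0.86 and -1.02) and H2-Ab1 (0.52 and 0.58) lay close together.

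Of the 50 members with a probe, 13 were not tested. H2-M10.1, H2-M10.2, H2-M10.6, H2-Q1, H2-T-ps and H2-DMb2 had no probe well above background on any array. H2-M5, H2-Oa and Erap1, an aminopeptidase that trims peptides, passed on 1 adult array, and H2-Eb2 on 1 embryonic array. Tap1, the partner of Tap2, passed on 1 array of each group, with -1.33 and -1.46 on embryonic arrays and -1.71 and -2.06 on adult arrays. The probes of the transactivator Ciita and of H2-DMa lacked adult array 2, where the spot was marked as an outlier. The genes not analysed here for want of a matched probe were H2-Bl, H2-D4, H2-Ea, H2-M10.5, H2-M10.5-ps1, H2-M2, H2-M4-ps, H2-M6-ps, H2-Pa, H2-Pb, H2-Q3, H2-Q6, H2-Q9, H2-T18, H2-T22 and Psme2. By class, 15 and 12 of 26 class I genes had a probe well above background on embryonic arrays and 21 and 20 on adult arrays. For class II the counts were 7 and 4 of 11 genes on embryonic arrays and 9 and 6 on adult arrays.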

How the data were processed

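RNA was measured on 4 arrays of 1 slide, and groups and replicate numbers came from the sample titles. Per the file headers, the deposited intensity values were made by Agilent Feature Extraction, version 10.7.3.1, with background subtracted within each array. The deposited value table (linear intensity, processing not given in the sources used here) matched the same arrays and served as an alternative. Here log2 of the processed signal was taken minus the array's 75th percentile. That percentile was 126 and 61.5 on embryonic arrays and 132 and 66.0 on adult arrays. Control and outlier spots were left out and the spots of a probe averaged. RefSeq accessions named 28026 of 55681 probes (50.3%) through GRCm38.p6, used for names. Each gene kept 1 probe, those well above background on all 4 arrays first, then the brightest. The difference, embryonic minus adult, came from limma (version 3.58.1, lmFit then eBayes, in R 4.3.3) with Benjamini-Hochberg adjustment over 13660 genes, and over 27038 probes in a separate fit. The fit was checked on simulated data.

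The members and gene lists were chosen with earlier results of these data known. All members were described, with up to 3 called genes per direction and list and 12 genes taken whatever their values (1 is not reported here). Alternatives were normexp (offset 50, on the median spot signal, since the mean signal was not used here), quantile normalization, other centrings, other filters and probe rules, other priors, the replicate number as a block, and each array left out. Chosen after seeing the data were an outlier-free 75th percentile, probes with values on all arrays first, and the motif spacing.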

Additional observations from a re-analysis of the deposited data

How the results depend on the processing

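Over all genes 7313 were called, with 3 members higher in embryonic spheres and 15 lower (of member probes, 1 and 15). Genes called numbered 3507 with normexp correction, 4850 with quantile normalization, 11521 with arrays centred on the median of all probes, 3812 on the median of the tested genes, and 2719 with no filter on dim probes. Of all calls 67.4% were higher in embryonic spheres, against 27.3% with arrays centred on the tested genes, 85.3% on all probes, 34.2% with no filter and 94.3% with signal on all 4 arrays. Members called higher numbered 1 with normexp, 8 when centred on all probes, and 0 with quantile normalization, tested-gene centring, the deposited value table, no filter or an outlier-free 75th percentile. At an unadjusted p under 0.05 these 5 settings gave 0, 0, 1, 3 and 2. Members called lower numbered 9 with normexp, 6 when centred on all probes, 23 on the tested genes and 7 with no filter. Member probes called higher were 0 with quantile normalization, tested-gene centring, the value table, no filter or the outlier-free percentile, 8 when centred on all probes, 3 with signal on all 4 arrays and 4 with an intensity trend. Member probes called lower were 8 when centred on all probes, 27 on the tested genes, 25 with the value table and 9 with no filter. Centred on all probes, H2-K1 (0.22), H2-Q8 (0.0377) and Tapbp (1.11) turned direction, each with a call in the main fit or under that centring. Members called in neither also turned. In class I they were B2m (0.05), H2-Q2 (0.32), H2-Q10 (0.60), H2-T10 (0.94) and H2-T23 (0.40). The others were Nlrc5 (0.44), Cd1d1 (0.75), Cd74 (1.01), H2-Aa (0.48), H2-DMb1 (0.46), Psmb10 (0.64) and Tap2 (0.96). The cause of these changes was not tested.

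With 1 array left out, limma called 0 to 7276 genes, 0 to 1 members higher and 0 to 21 lower, and 0 to 1 probes higher and 0 to 23 lower. The 0 calls were without adult array 1 or adult array 2, where the lone adult array is taken to vary like the embryonic group, and 6492 and 5974 genes then had an unadjusted p under 0.05. Without embryonic array 2, 8 members were lower and 10 probes. The class I minus class II median ran between -2.10 without embryonic array 2 and -0.12 without embryonic array 1.

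The replicate numbers have no stated shared source, and deviations of samples with the same number correlated at 0.17 over 9622 genes. With the replicate number as a block, 4622 genes were called higher and 2402 lower, with 2 members higher and 15 lower, and 2 member probes higher. Signal over background limits the dim members, of which 6 have only a bound in embryonic spheres.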

Other observations

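Class I-like genes outside the complex were read on the same arrays. Raet1e, a ligand of the natural killer receptor NKG2D, had 1.80 and 1.27 on embryonic arrays and 2.64 and 2.47 on adult arrays. Its log2 fold change of -1.02 (SE 0.34, limma adjusted p = 0.0497) was called. Mill2, a class I-like gene that lies outside the complex, was called lower at -1.61 (adjusted p = 0.0179). The other 3 of the 5 tested were not called, where 17.5% of all tested genes were called lower.

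Among members that could not be tested, Ciita had -3.46 and -3.69 on embryonic arrays and -0.12 on adult array 1, and H2-DMa had -0.97 and -2.08 on embryonic arrays and 0.83 on adult array 1. H2-Eb2 had -3.01 and -2.05 on embryonic arrays and -5.38 and -3.63 on adult arrays. It was well above background on 1 embryonic array.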
